A study of Mus musculus with 16 samples.

Results

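The response of Control-shRNA hippocampal cultures to 4 h of bicuculline was measured in 8 RNA sequencing libraries, 4 from cultures at baseline and 4 from treated cultures, out of 16 libraries in all. These 8 were chosen by their sample labels alone, so no measured value entered the choice. The cultures were prepared from hippocampi of newborn C57Bl/6N mice and infected with rAAVs (recombinant adeno-associated viruses) that carry Control-shRNA, a control short hairpin RNA expressed from a U6 promoter, together with GFP. Bicuculline was applied at 50 µM. The baseline cultures carry the same virus and received no bicuculline, so both groups are infected cultures and neither shows an uninfected culture. The other 8 libraries come from cultures that carry an shRNA against Dnmt3a1. They are used here for comparison and enter the statistical fit, which all 16 libraries share. The comparison of the 2 Control-shRNA groups asks which genes change with neuronal activity.

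Bicuculline blocks GABA-A receptors, the ion channels behind fast inhibition, and thereby sets off synchronous bursts of action potentials in a connected culture. The calcium that enters through NMDA receptors and voltage-gated calcium channels activates kinases which reach the nucleus and act on transcription factors that are already present, such as CREB, SRF and MEF2. Immediate early genes respond first, many of them transcription factors themselves, and genes for synaptic, secreted and metabolic proteins follow. In hippocampal neurons this programme is studied as a step between synaptic activity and lasting changes in synapses and survival.

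The 8 libraries held 28912480 to 29281666 estimated counts. Levels within a gene are given as CPM, the counts per 1000000 counts of a library after scaling by TMM, which sets the bulk of genes equal between libraries, and levels between genes as TPM, which is also scaled for transcript length. Changes are log2 fold changes of bicuculline over baseline with their standard error, and a gene is called when the adjusted p-value of edgeR is under 0.05 and the absolute log2 fold change is over 0.5. The markers of neurons were present in all libraries, with a sum over 8 genes of 5849 to 6486 TPM at baseline and 5322 to 5973 TPM with bicuculline. The sum over microglial markers, of which 5 had enough counts to be tested, was 6.59 to 11.3 TPM at baseline and 6.60 to 9.67 TPM with bicuculline, and none of the 5 was called, though 1 was without baseline replicate 3. Bicuculline replicate 1 stood out, since it held the highest value of the bicuculline group for 1019 of the 1854 genes called higher (55.0%), against 234 to 316 for each of the other libraries. These genes were called with this library included, and the share over all tested genes was not counted. Whether its response was stronger was not tested. The mitochondrial share of bicuculline replicate 1 was 5.86% of counts, beside 3.34 to 4.15% in the other bicuculline libraries and 2.80 to 4.75% at baseline. The part of this share in the results was not tested.

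Of 17222 genes tested, 3765 were called (21.9%), 1854 of them higher (10.8%) and 1911 lower (11.1%). In 3465 of the called genes the 4 values of one group all lay beyond those of the other, as they did in 6836 (39.7%) of all tested genes. Gains were larger than losses, with 274 genes higher by over 2 on the log2 scale and 21 lower by over 2. The median log2 fold change was 0.99 for genes called higher and -0.76 for genes called lower, beside 0.01 for all tested genes. With library sizes only, the median over all genes was -0.15 and 68.9% of the called genes were lower, against 50.8% with TMM. Limma on log2(TPM + 1) gave 71.4%. Directions of gene groups are therefore given relative to the median of all genes.

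**Figure D1:**
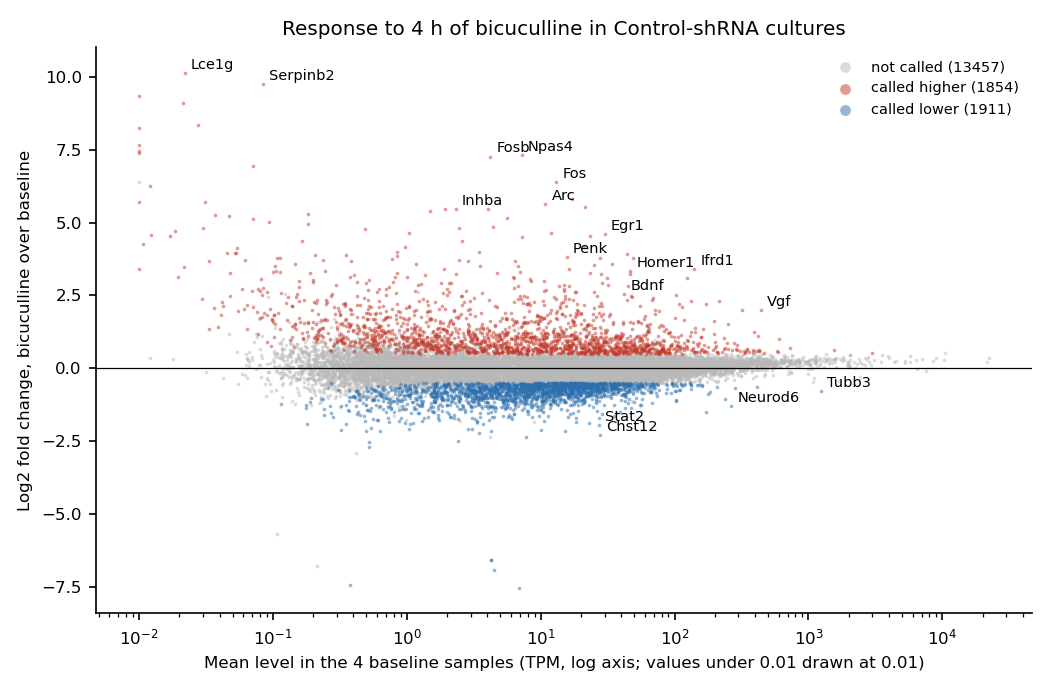
Each point is 1 of 17222 tested genes, with its mean level in the 4 baseline samples (TPM, log axis) against its log2 fold change with bicuculline, and colours show the calls. Gains over 5 include those of Npas4, Fosb and Inhba, while most genes called lower sit between -0.5 and -2.

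The median level at baseline of genes called higher was 6.63 TPM, beside 8.69 TPM for genes called lower and 14.6 TPM for genes not called, and 403 of the 1854 (21.7%) lay under 1 TPM, beside 2784 (16.2%) of all tested genes. Genes scarce at baseline can pass the filter on low counts through the treated libraries alone. Together the genes called higher held 5.06 to 5.62% of all TPM in the baseline libraries and 9.77 to 10.7% with bicuculline, a rise that their choice fixes. The Dnmt3a1-shRNA libraries did not enter the contrast that chose these genes, but shared its filter, scaling and estimate of spread. In them the same genes held 4.65 to 5.66% at baseline and 10.4 to 10.6% with bicuculline. The genes called lower held 3.05 to 3.22% and 1.49 to 1.78% in Control-shRNA, and 2.89 to 3.16% and 1.38 to 1.74% in Dnmt3a1-shRNA cultures.

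The median gene length was 21.3 kb for genes called higher, 22.4 kb for genes called lower and 20.7 kb for genes not called. Genes higher by over 2 on the log2 scale were shorter, with a median of 8.92 kb and 4 exons in the longest transcript, against 8 exons for genes not called. These classes were not limited to protein-coding genes. Of the genes higher by over 2, 46.7% lay under 1 TPM at baseline, beside 16.6% of genes not called. The part of gene type and level in these lengths was not tested.

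Of 30 inducible transcription factors tested, 26 were called higher (86.7%) and 2 lower (6.67%), beside 10.8% and 11.1% of all genes. Their median log2 fold change was 3.12. The list holds genes known as inducible, so these calls are no independent result. The summed level of the 30 was 964 to 1132 TPM in the baseline libraries and 7153 to 8589 TPM with bicuculline. Fosb, a partner of Jun proteins in the AP-1 factor (ENSMUSG00000003545.3, chr7:19302696-19310051 on GRCm38), was at 5.20, 5.21, 8.69 and 6.84 CPM at baseline and at 932, 1181, 1065 and 803 CPM with bicuculline. Every treated library thus lay far above every baseline library, with a log2 fold change of 7.26 ± 0.22 (SE, n = 4 per group; adjusted p = 2.0e-13).

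Other zinc finger and nuclear receptor genes of the group showed the same separation. Egr2, a zinc finger factor, held 2.01, 1.02, 1.79 and 1.33 CPM at baseline and 94.3, 50.2, 50.2 and 61.3 CPM with bicuculline, a log2 fold change of 5.38 ± 0.24. Nr4a1, an orphan nuclear receptor, held 22.1, 18.5, 31.7 and 26.2 CPM and then 699, 579, 525 and 490 CPM (4.54 ± 0.19). Csrnp1, a nuclear protein with a cysteine- and serine-rich region, was the steadiest of them, at 3.09 to 3.27 CPM at baseline and 98.1 to 136 CPM with bicuculline (5.14 ± 0.12). It had the smallest p-value of all tested genes. Atf3, a basic leucine zipper factor induced by many kinds of stress, went from 1.68 to 5.20 CPM up to 111 to 197 CPM (5.45 ± 0.34), and Egr1 changed by 4.61 ± 0.23. Klf10, a TGF-beta-inducible repressor, and Nab2, a co-repressor that binds Egr proteins, were the 2 genes called lower, at -0.65 and -0.54 ± 0.13, and Nab2 was at -0.49, under the threshold of fold, without bicuculline replicate 1.

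Of 24 feedback inhibitors tested, genes whose products limit kinase and growth factor signals, 19 were called higher (79.2%) and 2 lower (8.33%). The shares of all genes were 10.8% and 11.1%, and the median change of the list was 1.48. Dusp1, a phosphatase that switches off MAP kinases, held 13.2, 12.6, 13.5 and 15.3 CPM at baseline and 177, 129, 141 and 127 CPM with bicuculline, a log2 fold change of 3.40 ± 0.12 (adjusted p = 6.8e-13). Errfi1, an inhibitor of the EGF receptor, changed by 3.27 ± 0.10 and Dusp4 by 2.84 ± 0.11. The phosphatase genes did not move as 1 family. Dusp7 was at 46.1 to 53.7 CPM at baseline and at 28.8 to 35.5 CPM with bicuculline (-0.66 ± 0.07), and Dusp2 was called lower as well. Pim1, a serine/threonine kinase gene outside this list, rose from 1.49 to 2.16 CPM up to 74.4 to 98.0 CPM (5.47 ± 0.13).

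Of 18 activity-regulated synaptic genes tested, 12 were called higher (66.7%) and 1 lower (5.56%), beside 10.8% and 11.1% of all genes. The median was 2.23, and this list too is named for regulation by activity. Homer1, a scaffold of the postsynaptic density with a short form induced by activity, was at 79.7, 63.1, 71.1 and 82.3 CPM at baseline and at 1168, 528, 617 and 690 CPM with bicuculline, a log2 fold change of 3.34 ± 0.22. The value of replicate 1 was far above the other 3 treated libraries, yet these too lay above the whole baseline group. Nptx2, a secreted pentraxin that gathers AMPA receptors, held 25.1 to 42.3 CPM and then 370 to 492 CPM (3.79 ± 0.23). Ptgs2, which makes prostaglandins, changed by 4.83 ± 0.33, and Arc, which drives the uptake of AMPA receptors, by 5.64 ± 0.27. Synpo, an actin-binding protein of the spine apparatus, fell from 86.5 to 99.8 CPM to at most 58.3 CPM (-0.75 ± 0.08).

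**Figure D2:**
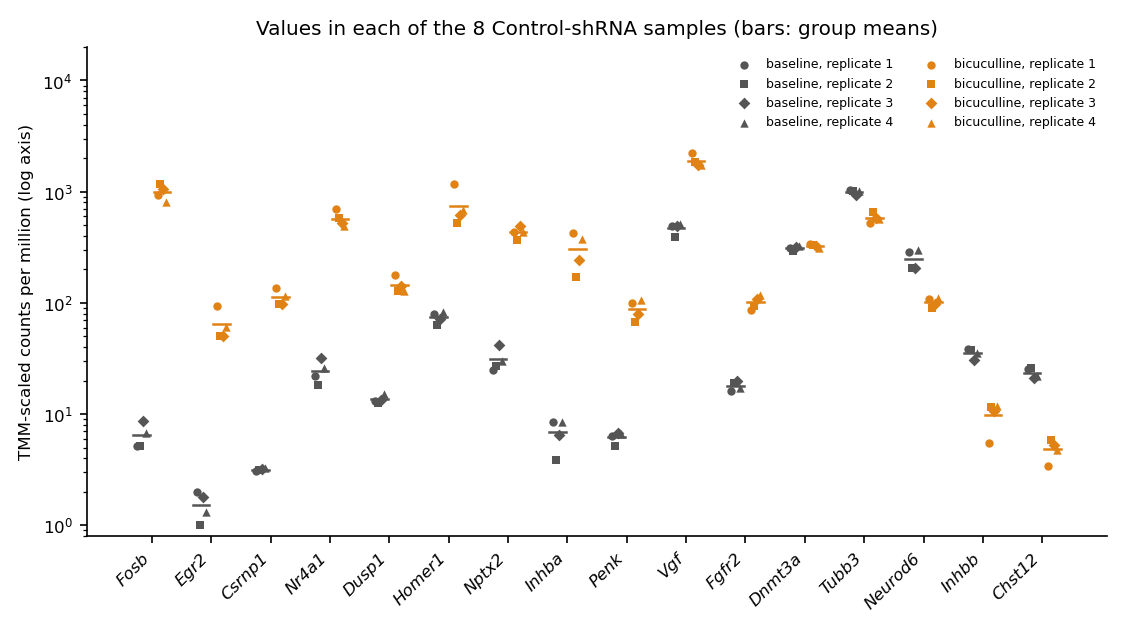
The values of 16 named genes in each of the 8 samples (TMM-scaled CPM, log axis), baseline in grey and bicuculline in orange, with a marker shape for each replicate number and a bar at each group mean. The groups are apart for every gene shown except Dnmt3a, and for Homer1 and Inhbb the treated replicate 1 lies away from the other treated samples.

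Activity also protects hippocampal neurons, and a set of 10 genes known as activity-regulated inhibitors of death is linked to this. The set is named for its regulation by activity, so calls of its members are no independent result. The 10 were tested and called higher (100%, beside 10.8% of all genes), with a median of 5.04. Npas4, Atf3 and Nr4a1 are also on the list of transcription factors. The summed level of the 10 was 81.2 to 125 TPM at baseline and 2197 to 2956 TPM with bicuculline. Gadd45b, a growth arrest and DNA damage protein, was at 6.51, 6.17, 4.92 and 6.35 CPM and then at 195, 109, 127 and 161 CPM (4.63 ± 0.17). Ifi202b, an interferon-inducible gene, had 2 counts over the 4 baseline libraries and 1216 counts over the 4 treated libraries, through which it passed the filter, a ratio of 683 with an exact 95% interval of 189 to 5642 for counting error. Its treated values were uneven, at 24.4, 1.74, 4.42 and 13.4 CPM.

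Among 39 growth factors and cytokines tested, 18 were called higher (46.2%) and 5 lower (12.8%), beside 10.8% and 11.1% of all genes. The subunits of activin went opposite ways. Inhba, the beta A subunit of activin (ENSMUSG00000041324.14, chr13:16011851-16031621 on GRCm38), was at 8.52, 3.89, 6.54 and 8.46 CPM at baseline and at 422, 172, 245 and 373 CPM with bicuculline, a log2 fold change of 5.47 ± 0.35 (adjusted p = 1.5e-09). Inhbb, the beta B subunit (ENSMUSG00000037035.5, chr1:119415465-119422248 on GRCm38), was at 38.7, 38.0, 30.8 and 35.7 CPM and then at 5.47, 11.6, 10.8 and 11.8 CPM, a log2 fold change of -1.85 ± 0.19 (adjusted p = 3.9e-07). The groups did not overlap for either gene, and the order of the subunits changed from beta B above beta A at baseline to beta A above beta B with bicuculline, on the TPM scale as well (2.32 and 18.3 TPM, then 101 and 4.44 TPM). The activin receptor genes Acvr2b and Acvr1b were called lower at -0.80 ± 0.21 and -0.54 ± 0.07, the latter at -0.49 without baseline replicate 2.

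Neurotrophins were also split. Bdnf, which promotes survival and synaptic strengthening, went from 53.5 to 102 CPM up to 346 to 561 CPM (2.53 ± 0.19). Ntf3, which encodes neurotrophin-3, fell from 4.11 to 5.53 CPM to 1.75 to 2.48 CPM (-1.12 ± 0.20). Ccn1, a matricellular protein, rose by 4.36 ± 0.18 on the log2 scale. Alkal2, a ligand of the receptor kinases Alk and Ltk, changed by 2.63 ± 0.21. Of 34 growth factor receptors tested, 9 were called higher (26.5%) and 4 lower (11.8%), beside 10.8% and 11.1% of all genes. Fgfr2 held 16.2 to 19.7 CPM at baseline and 85.9 to 118 CPM with bicuculline (2.49 ± 0.10) and Fgfr1 held 128 to 143 CPM and then 317 to 418 CPM (1.41 ± 0.10), whereas Kdr, a VEGF receptor, was called lower (-1.08 ± 0.22), but not by limma on log2(TPM + 1).

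Neuropeptides and the proteins that package and cleave them moved in a single direction where they were called. Of 25 tested, 15 were called higher and none lower, which stands beside 10.8% and 11.1% of all genes, and the median was 0.69. Penk, the precursor of enkephalins, held 6.35, 5.21, 6.84 and 6.58 CPM at baseline and 99.8, 66.8, 79.4 and 106 CPM with bicuculline (3.82 ± 0.16). Pcsk1, a convertase that cleaves peptide precursors, went from 44.3 to 83.5 CPM up to 378 to 696 CPM (2.93 ± 0.22). Vgf, the precursor of several secreted peptides, was among the 6 genes with the largest gain in mean TPM, from 441 to 1590 TPM. Adcyap1, which encodes PACAP, rose by 2.33 ± 0.36, while Crhbp and Npy showed smaller changes of 0.78 ± 0.17 and 0.66 ± 0.17. The 4 treated values of Npy, 68.5 to 127 CPM, overlapped with its baseline values of 48.8 to 78.1 CPM, and it was not called by limma on log2(TPM + 1) or log2(TPM + 0.1).

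Receptors and channels of fast transmission changed less than the genes above. Of 28 ionotropic glutamate receptor genes and auxiliary subunits, 1 was called higher (3.57%, beside 10.8% of all genes) and none lower. It was Cacng5, an auxiliary subunit of AMPA receptors (0.57 ± 0.21). Its groups overlapped, and without baseline replicate 1, 2 or 4 or bicuculline replicate 2 or 3 it had an adjusted p-value in edgeR of 0.062 to 0.12. Gria1, an AMPA receptor subunit, had 681 to 776 CPM at baseline and 788 to 883 CPM with bicuculline (0.20 ± 0.08; adjusted p = 0.068), without overlap between the groups. Of 7 metabotropic receptor genes 2 were called lower (28.6%, beside 11.1% of all genes) and none higher, with 1 to 2 lower when 1 library was left out. The largest fall was that of Grm7, at -0.81 ± 0.07. Of 23 genes for GABA synthesis, transport and receptors, 2 were called higher (8.70%, beside 10.8% of all genes), both enzymes that make GABA. Gad1 was at 775, 643, 655 and 836 CPM at baseline and at 1267, 967, 1035 and 1156 CPM with bicuculline (0.61 ± 0.12), and Gad2 changed by 0.65 ± 0.15. Neither was called with library sizes only.

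Of 60 potassium channel subunits, 8 were called higher (13.3%) and 10 lower (16.7%), beside 10.8% and 11.1% of all genes. Kcnf1, a modifier subunit that forms no channel by itself, rose from 33.5 to 50.2 CPM up to 120 to 149 CPM (1.77 ± 0.16). Kcnv1, another modifier subunit, held 31.2, 25.7, 31.0 and 29.4 CPM at baseline and 8.55, 10.7, 9.74 and 8.03 CPM with bicuculline (-1.66 ± 0.12). Kcnj2, an inward rectifier, changed by 1.63 ± 0.26, and Kcng1 and Kcnj12 by -1.19 ± 0.13 and -1.07. Among 27 sodium, calcium and HCN channel genes 2 were called higher and 2 lower (7.41% each), with 1 to 2 higher when 1 library was left out. Those called lower were the sodium channel genes Scn3a (-0.83 ± 0.09) and Scn2a (-0.56 ± 0.14).

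Of 38 vesicle and release genes, 3 were called higher (7.89%) and 1 lower (2.63%), beside 10.8% and 11.1% of all genes. Syt4, a synaptotagmin of dense-core vesicles, stood apart from the rest, at 298, 287, 313 and 316 CPM at baseline and at 1843, 1060, 1250 and 1509 CPM with bicuculline (2.22 ± 0.15). Slc17a6, a vesicular glutamate transporter, changed by 1.54 ± 0.16, and Slc17a7, the other glutamate transporter of these vesicles and more abundant here, by 0.04 ± 0.10. Of 28 postsynaptic scaffold genes 5 were called higher (17.9%) and none lower, led by Dlgap2 (1.30 ± 0.15).

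Synaptic adhesion genes gave 4 called higher (10.8%) and 3 lower (8.11%) of 37, shares near those of all genes (10.8% and 11.1%), with Flrt3 at 1.35 ± 0.12 and Nlgn3 at -0.75 ± 0.08. Axon guidance genes gave 9 higher (16.1%) and 7 lower (12.5%) of 56. Within the class 4 semaphorins, Sema4c was at 13.1 to 15.2 CPM and then at 44.9 to 48.2 CPM (1.76 ± 0.07), while Sema4d was at 42.7 to 53.2 CPM and then at 15.7 to 20.4 CPM (-1.37 ± 0.10). Neither pair of groups overlapped. Nrp1, a semaphorin and VEGF co-receptor, held 138, 124, 123 and 151 CPM at baseline and 222, 203, 199 and 236 CPM with bicuculline (0.68 ± 0.10; adjusted p = 2.8e-05), but was not called by limma on log2(TPM + 1).

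Of 34 cAMP and CREB genes tested, 9 were called higher (26.5%) and 2 lower (5.88%), beside 10.8% and 11.1% of all genes. Crem, whose short product ICER represses CRE sites, was at 8.55, 6.48, 9.48 and 10.5 CPM at baseline and at 43.0, 24.8, 27.8 and 29.4 CPM with bicuculline (1.83 ± 0.18). Creb1, the activator itself, was at 50.8, 37.8, 39.9 and 49.7 CPM and then at 26.8, 22.7, 24.1 and 24.0 CPM (-0.87 ± 0.13). Of 22 calcium and calmodulin genes 2 were called higher (9.09%, near the share of all genes) and none lower. They were Rcan2 and Camk2n2, an inhibitor of CaMKII (0.67 ± 0.09). Camk2n2 was not called by limma on log2(TPM + 1) or log2(TPM + 0.1).

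Of 18 circadian clock genes, 6 were called higher (33.3%, beside 10.8% of all genes) and none lower, and the median was -0.02. Per1 went from 47.0 to 61.6 CPM up to 240 to 274 CPM (2.25 ± 0.09) and Per2 from 14.7 to 19.1 CPM up to 71.4 to 96.8 CPM (2.28 ± 0.13), both of them repressors in the clock loop. Rorb, a nuclear receptor, changed by 1.89 ± 0.23.

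Enzymes that write and erase DNA methylation gave 6 called higher (30%) and 4 lower (20%) of 20, beside 10.8% and 11.1% of all genes. Dnmt3a, whose isoform Dnmt3a1 is the target of the knockdown in the other cultures, was counted per gene, over Dnmt3a1 and Dnmt3a2 together. The study cites work in which activity induces transcription of Dnmt3a2 but not of Dnmt3a1, and a change of a single isoform was not resolved here. The gene was at 311, 293, 321 and 323 CPM at baseline and at 338, 332, 325 and 311 CPM with bicuculline. The groups overlapped and the change of 0.06 ± 0.06 did not pass the test (exact two-sided permutation test p = 0.17, where 0.029 is the smallest that 4 against 4 libraries allow). Among the TET dioxygenases, which oxidise methylcytosine, Tet3 rose from 89.2 to 99.6 CPM up to 300 to 470 CPM (1.91 ± 0.13) and Tet1 fell from 27.5 to 37.7 CPM to 16.1 to 18.3 CPM (-0.99 ± 0.16). Gadd45g rose by 4.17 ± 0.17, beside Gadd45b above.

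Of 50 histone-modifying enzymes, 4 were called higher (8%) and 11 lower (22%), beside 10.8% and 11.1% of all genes, with a median of -0.26 that was -0.42 with library sizes only, beside -0.15 for all genes. Setd1b, which methylates lysine 4 of histone H3, was at 45.1 to 54.1 CPM at baseline and at 16.8 to 28.8 CPM with bicuculline (-1.13 ± 0.13). The lysine demethylases were divided, with Kdm7a at 1.62 ± 0.13 and Kdm4a at -0.73. Among 19 Krüppel-like and Sp factors 5 were called higher (26.3%) and 3 lower (15.8%), from Klf4 (3.41 ± 0.18) to Klf11 (-1.07 ± 0.16).

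**Figure D3:**
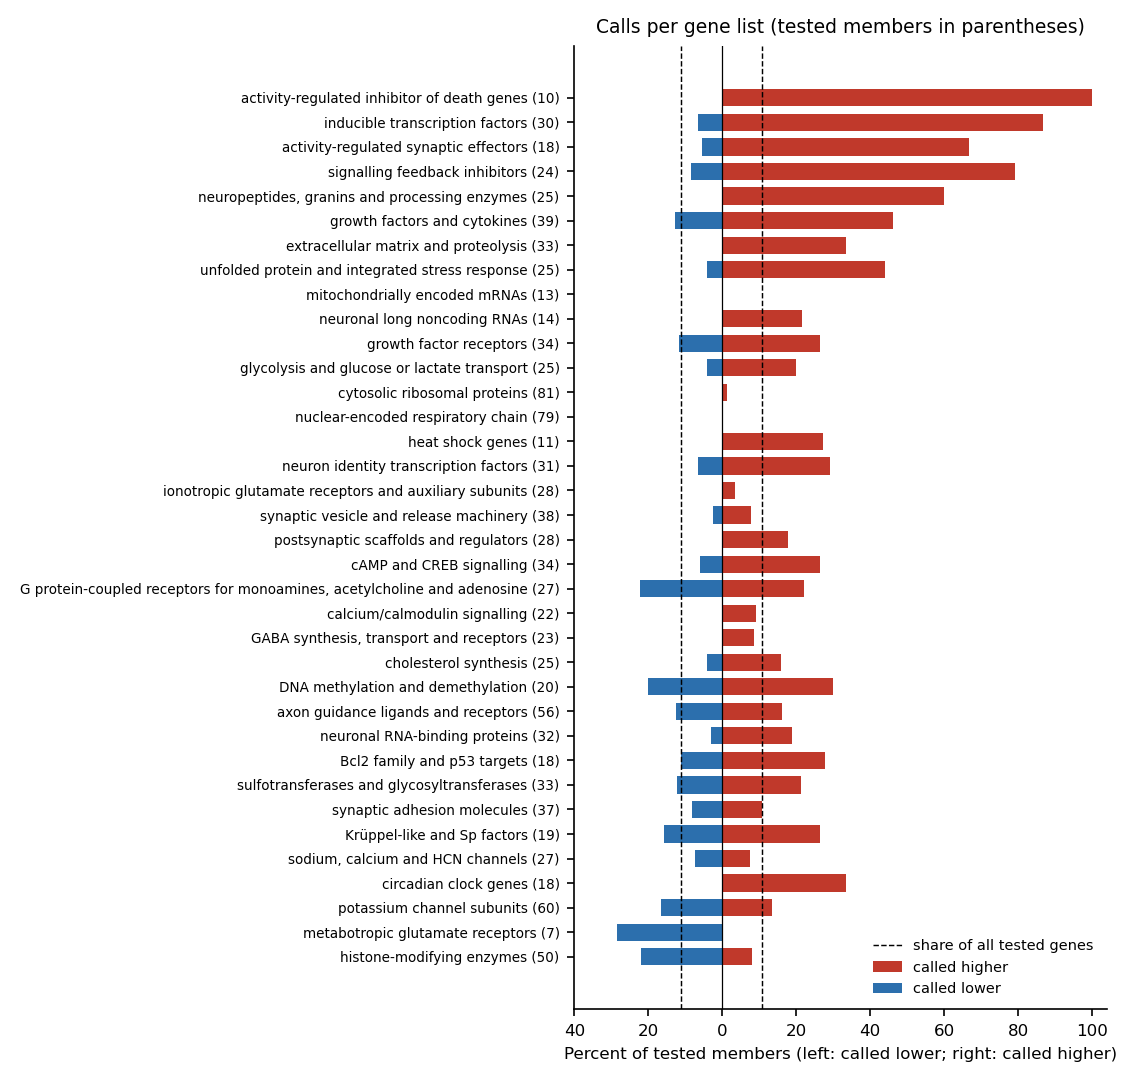
The percent of tested members called higher (red, to the right) and lower (blue, to the left) in 36 gene lists, ordered by median log2 fold change, with dashed lines at the 10.8% and 11.1% of all tested genes. The upper 6 lists, from inhibitors of death to growth factors, hold 46.2 to 100% of members called higher, while ribosomal protein genes and respiratory chain genes hold 1 call or none.

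Glycolysis and transport genes gave 5 called higher (20%) and 1 lower (4%) of 25, beside 10.8% and 11.1% of all genes. Slc2a1 and Slc2a3, the glucose transporters of barrier cells and neurons, rose from 20.3 to 27.0 CPM up to 130 to 166 CPM (2.63 ± 0.12) and from 178 to 205 CPM up to 787 to 852 CPM (2.11 ± 0.06). Slc16a1, a lactate transporter, changed by 1.86 ± 0.07 and Slc16a7, another lactate transporter, by -0.58. The enzyme Gapdh, at 2184 to 2488 CPM and then 2741 to 3087 CPM, changed by 0.35 ± 0.06 and was below the threshold of fold. None of 79 nuclear respiratory chain genes was called, and 1 was without baseline replicate 3, bicuculline replicate 1 or bicuculline replicate 4. None of 13 mitochondrial mRNAs was called without the replicate block, and 1, mt-Co1 (0.52), was called with it. By the adjusted p-value of edgeR alone, without the threshold of fold, 40 and 0 of them passed.

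Of 25 genes of the unfolded protein and integrated stress response 11 were called higher (44%) and 1 lower (4%). The shares of all genes were 10.8% and 11.1%, and the median of the list was 0.32. When 1 library was left out, 0 to 1 was called lower. Ppp1r15a, a phosphatase subunit that ends the integrated stress response, was at 22.8, 25.7, 30.8 and 26.9 CPM at baseline and at 149, 151, 144 and 145 CPM with bicuculline (2.47 ± 0.14). Sesn2, a stress-inducible inhibitor of mTORC1 signalling, and Sdf2l1, a chaperone partner of the endoplasmic reticulum, were at 1.70 and 1.62. Hspa1b, an inducible Hsp70 with a near-identical copy whose reads may be divided with it, changed by 1.69 ± 0.20. Of 11 heat shock genes 3 were called higher (27.3%) and none lower. Of 18 genes of the Bcl2 family and p53 targets, 5 were called higher (27.8%) and 2 lower (11.1%). With 1 library left out, 1 to 3 were lower. Cdkn1a rose the most, by 1.24 ± 0.19. Mcl1, which blocks apoptosis, rose by 1.13 ± 0.09. Bbc3, which promotes apoptosis, fell from 22.7 to 40.8 CPM to 7.40 to 18.6 CPM (-1.24 ± 0.35). Bcl2l1, the other gene called lower, was at -0.50 ± 0.07 and lost its call in voom with limma and in DESeq2.

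Of 33 extracellular matrix and protease genes, 11 were called higher (33.3%, beside 10.8% of all genes) and none lower, with 1 lower without baseline replicate 4 or bicuculline replicate 3. Tnc, a glycoprotein of the matrix, was at 6.08, 6.57, 8.05 and 6.42 CPM at baseline and at 73.8, 33.9, 38.2 and 58.7 CPM with bicuculline (2.91 ± 0.29). Plat, tissue plasminogen activator, changed by 2.81 ± 0.28. Among 33 enzymes that build and sulfate glycans, 7 were called higher (21.2%) and 4 lower (12.1%, beside 11.1% of all genes). Ext1, which extends heparan sulfate, rose by 1.03 ± 0.06. Chst12, which sulfates chondroitin and was at 21.0 to 26.2 CPM before and 3.38 to 5.82 CPM after, fell the most of the genes that the rule over all genes names (-2.29 ± 0.15).

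Of 27 receptors for monoamines, acetylcholine and adenosine, 6 were called higher and 6 lower (22.2% each, beside 10.8% and 11.1% of all genes), with 3 higher without bicuculline replicate 3. Chrm2, a muscarinic receptor, was at 6.64 to 9.04 CPM and then at 16.8 to 19.8 CPM (1.27 ± 0.11), and Htr2a, a serotonin receptor, changed by 1.04 ± 0.10. Adra2c, an adrenergic receptor that lowers cAMP, was at 16.6 to 21.3 CPM and then at 5.69 to 10.5 CPM (-1.24 ± 0.14). Of 25 genes of cholesterol synthesis and uptake 4 were called higher (16%) and 1 lower (4%), with 1 to 3 lower when 1 library was left out. Of 32 neuronal RNA-binding proteins 6 were called higher (18.75%) and 1 lower (3.1%), led by the splicing regulator Mbnl2 (1.45 ± 0.09).

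Of 31 transcription factors that mark neuron identity, 9 were called higher and 2 lower. Fezf2, which specifies subcerebral projection neurons, held 45.6, 59.7, 56.1 and 52.0 CPM at baseline and 196, 248, 238 and 256 CPM with bicuculline (2.14 ± 0.11). Neurod6, a factor of excitatory neurons, held 289, 208, 205 and 300 CPM and then 108, 90.3, 98.3 and 112 CPM (-1.29 ± 0.16). Bcl11b fell by 0.77 on the log2 scale (± 0.10).

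Of 7 markers of GABAergic neurons, 4 were called higher (57.1%, beside 10.8% of all genes). They were Gad1, Gad2, Sst (0.62 ± 0.13) and Dlx1 (0.58 ± 0.11). None of these 4 was called with library sizes only, where the median of the 7 was 0.43, beside 0.58 with TMM. The sum over the 7 was 2389 to 2785 TPM at baseline and 2910 to 4021 TPM with bicuculline, and Sst made up most of it. The sum over 7 markers of excitatory neurons was 1632 to 1746 TPM and then 1240 to 1461 TPM. In TMM-scaled CPM its mean was 2995 and then 2833. Of the 7, 5 rose and 2 fell, with a median of 0.04. Calls were 2 higher (28.6%) and 1 lower (14.3%), beside 10.8% and 11.1% of all genes. Without baseline replicate 2 or bicuculline replicate 1 or 2, 2 were called lower. The part of these sums in the results for Gad1, Gad2 and Neurod6 was not tested. In bulk RNA, more cells of a type and more RNA per cell cannot be told apart. Astrocyte markers gave sums of 264 to 431 TPM at baseline and 227 to 412 TPM with bicuculline, with 1 of 9 called, Sox9 (1.09 ± 0.18). For proliferating cells the sums were 43.2 to 49.9 TPM and 56.3 to 75.6 TPM. The 1 gene called of 4 tested was Pcna (0.76 ± 0.07), a clamp of DNA replication and repair. Of the 4, 2 rose and 2 fell, with a median of -0.02. Mki67 was the lowest, at -0.79, and was not called. Sums for the oligodendrocyte lineage were 86.6 to 178 TPM and 81.2 to 184 TPM, with Mog called lower, and for fibroblasts and vessels 40.9 to 74.3 TPM and 36.6 to 82.5 TPM, with Col1a2 called higher (0.55 ± 0.21). Col1a2 lost its call without any 1 library other than baseline replicate 3 or bicuculline replicate 1.

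Over all genes with a mean of at least 10 TPM, the 12 protein-coding genes with the largest falls were Chst12, Stat2, Pagr1a, Inhbb, Lzts1, Dact2, Kcnv1, Oprl1, Tmem121b, 4930430F08Rik, Sh3bp4 and Lrrn2, between -2.29 and -1.51. Stat2, which carries the signal of type I interferons, was at 51.0, 37.7, 28.6 and 44.4 CPM at baseline and at 11.8, 8.87, 10.5 and 11.3 CPM with bicuculline (-1.93 ± 0.22). Oprl1, the receptor for nociceptin, was at 39.6 to 47.7 CPM and then at 12.5 to 15.6 CPM (-1.63 ± 0.09). Lrrn2, a leucine-rich repeat protein of neurons, was the most abundant, at 245 to 287 CPM and then 81.5 to 114 CPM (-1.51 ± 0.11). Pagr1a was uneven, at 1.82 to 6.94 CPM and then 0.335 to 1.61 CPM (-1.86 ± 0.58), and without baseline replicate 2 the change was -1.44 with an adjusted p-value in edgeR of 0.070.

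Tuba1a, Tubb2a, Tubb3, Tubb2b and Tubb5 were 5 of the 6 genes with the largest loss in mean TPM, and all 5 encode tubulins, the subunits of microtubules. Tubb3, a beta-tubulin of neurons, was at 1026, 1018, 935 and 1005 CPM at baseline and at 527, 664, 576 and 567 CPM with bicuculline (-0.77 ± 0.09; adjusted p = 2.9e-06). Tubb5 (-0.45 ± 0.09), Tubb2b (-0.42 ± 0.10) and Tubb2a (-0.31 ± 0.08) had adjusted p-values under 0.05 and no overlap between groups, below the threshold of fold, and were called by limma on log2(TPM + 1). Tuba1a was at 6262 TPM with bicuculline, a lower mean than at baseline, while its groups overlapped in CPM (-0.07 ± 0.10). Tubulin genes are similar in sequence, and reads can be divided among them. On the side of gains, Ifrd1, a transcriptional co-regulator, went from 140 to 1196 TPM and from 49.6 to 65.8 CPM up to 413 to 819 CPM (3.40 ± 0.18).

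Genes named Zfp, Zscan, Zkscan or Zbtb, most of which encode zinc finger proteins that bind DNA, leaned down as a family. This group and the centrosomal group below were formed after the values had been seen. Of 437 tested, 28 were called higher (6.41%) and 168 lower (38.4%), beside 10.8% and 11.1% of all genes, and 328 had a negative log2 fold change. The median was -0.38, and -0.54 with library sizes only, beside 0.01 and -0.15 for all genes. Zkscan16 was at 11.5, 13.6, 14.7 and 12.6 CPM at baseline and at 2.23, 5.50, 4.29 and 2.84 CPM with bicuculline (-1.82 ± 0.21). Some members went the other way, such as Zfp184, at 2.22 to 2.93 CPM and then 13.1 to 16.3 CPM (2.48 ± 0.16). Of 37 genes named Cep, for proteins of the centrosome, 15 were called lower (40.5%) and 4 higher (10.8%), with a median of -0.25, -0.41 with library sizes only and -0.38 without baseline replicate 1. Of ribosomal protein genes, 1 of 81 was called (2 without baseline replicate 2 or 3 or bicuculline replicate 1 or 3), Rpl22l1 (1.06 ± 0.15), with a median of 0.22 that was 0.06 with library sizes only.

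**Figure D4:**
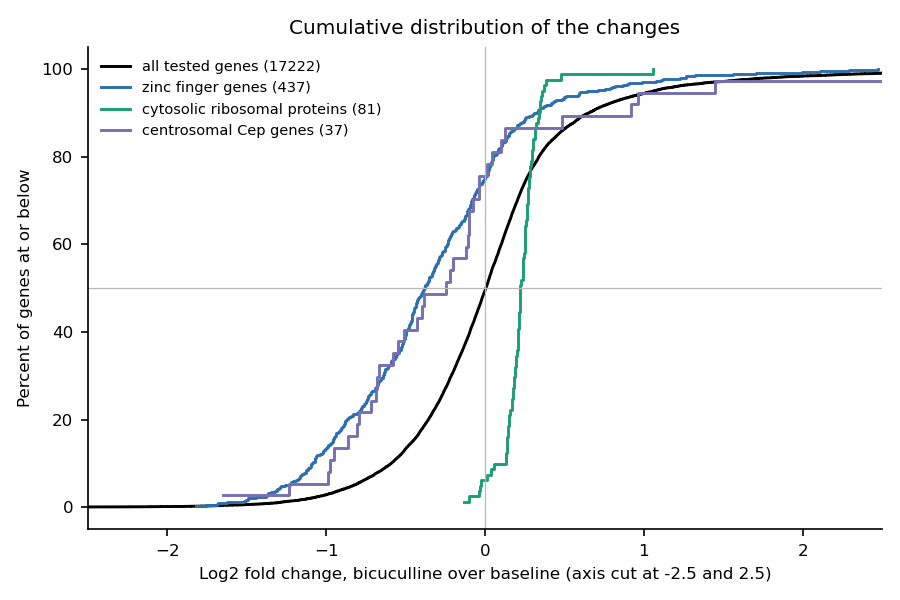
Cumulative distribution of log2 fold changes for all tested genes, zinc finger genes, cytosolic ribosomal protein genes and centrosomal Cep genes, with the percent of genes at or below each value on the vertical axis. The zinc finger curve crosses 50% at -0.38 and the ribosomal curve at 0.22, beside 0.01 for all genes; with library sizes only these were -0.54, 0.06 and -0.15.

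Of 659 long intergenic RNAs tested, 94 were called higher and 61 lower (14.3% and 9.26%, beside 10.8% and 11.1% of all genes). Of 602 antisense RNAs 78 were called higher and 40 lower (13.0% and 6.64%). Whether reads of an antisense gene come from its partner on the other strand cannot be told here, since the strand setting is not given in the sources used here. Neat1, the RNA scaffold of paraspeckles, changed by 1.01 ± 0.23 and was not called by limma on log2(TPM + 1). The genes of the microRNA cluster miR-212/132, a target of CREB in neurons, gave the largest change among genes named Mir, which were also grouped after the values had been seen. Their mature products, from RefSeq on GRCm38.p6, are shown because the 3p arms share 1 seed, which sets the messages a microRNA can pair with (capitals, bases 2 to 8).
miR-132-3p (chr11:75173723-75173744, plus strand): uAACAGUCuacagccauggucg
miR-212-3p (chr11:75173443-75173464, plus strand): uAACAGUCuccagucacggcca

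The libraries hold long RNA, so these values come from reads over the hairpins and say nothing of mature microRNA. Over the Mir132 hairpin they were 0.164, 0.216, 0.182 and 0.259 CPM at baseline and 13.7, 14.3, 11.7 and 7.57 CPM with bicuculline (5.81 ± 0.28). Mir132 passed the filter on low counts through the treated libraries, in which it is high. Mir212 changed by 5.54 ± 0.25. The transcript 1700016P03Rik spans both hairpins on the same strand (chr11:75172560-75177633) and was at 0.940 to 2.04 CPM and then at 34.9 to 55.7 CPM (4.85 ± 0.23). Its reads and theirs can be divided by the quantification, so the 3 values are not independent.

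Promoters were searched for the site of CREB and of other factors that activity is known to engage. Windows of 250 bases before to 50 bases after each start were taken from RefSeq (GRCm38.p6) for protein-coding genes outside chromosome 18, and matched 1186 of 1452 genes called higher and 1365 of 1672 called lower. The full CRE, TGACGTCA on either strand, lay in 5.09% of 1533 promoters of genes called higher, 1.85% of 1730 of genes called lower and 2.75% of 11437 of genes not called, beside 1.79% of 32841 promoters in all. The core TGACG, which the full site contains, lay in 36.1%, 23.7% and 29.1%, beside 20.8% of all. The AP-1 site TGACTCA lay in 5.41%, 3.01% and 3.66%, beside 5.20% of all, and the CArG box of SRF in 3.33%, 1.10% and 1.13%, beside 1.63%.

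The Egr site GCGTGGGCG lay in 1.17%, 1.45% and 1.09%, the MEF2 site in 3.46%, 3.41% and 2.95%, and the nuclear receptor site AAAGGTCA in 0.652%, 1.503% and 1.04%. The median GC content was 61.7%, 59.7% and 60.3%. These shares are descriptions of letters, and no binding was measured.

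Windows of 15 bases around the full CRE are shown for the named genes with the largest changes among those that hold one, so that the site can be seen beside their values above. The site is in capitals and each line reads 5′ to 3′ on the strand of its gene.
Dusp1 (chr17:26508593-26508630, minus strand): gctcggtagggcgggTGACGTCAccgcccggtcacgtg
Errfi1 (chr4:150855004-150855041, plus strand): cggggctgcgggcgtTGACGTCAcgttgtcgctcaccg
Pcsk1 (chr13:75089764-75089801, plus strand): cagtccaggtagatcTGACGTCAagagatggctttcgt
Ppp1r15a (chr7:45526258-45526295, minus strand): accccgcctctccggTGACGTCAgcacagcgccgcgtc

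In Dusp1 the site began 143 bases before the start of transcription, in Errfi1 51, in Pcsk1 78 and in Ppp1r15a 12. Of 229 genes named by the rule from lists and single genes, 171 had a promoter in the table and 11 of them held a full CRE, among them Slitrk2 and Hs3st2, which both changed by 0.80.

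The Dnmt3a1-shRNA cultures give another 8 libraries for the same treatment. There 2167 genes were called higher (12.6%) and 2269 lower (13.2%). Of the 1854 genes called higher in Control-shRNA, 1645 were called higher there too, which is 88.7% of the Control-shRNA list and 75.9% of the other. For genes called lower, 1591 were shared, 83.3% of the Control-shRNA list and 70.1% of the other. No gene was called in opposite directions.

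**Figure D5:**
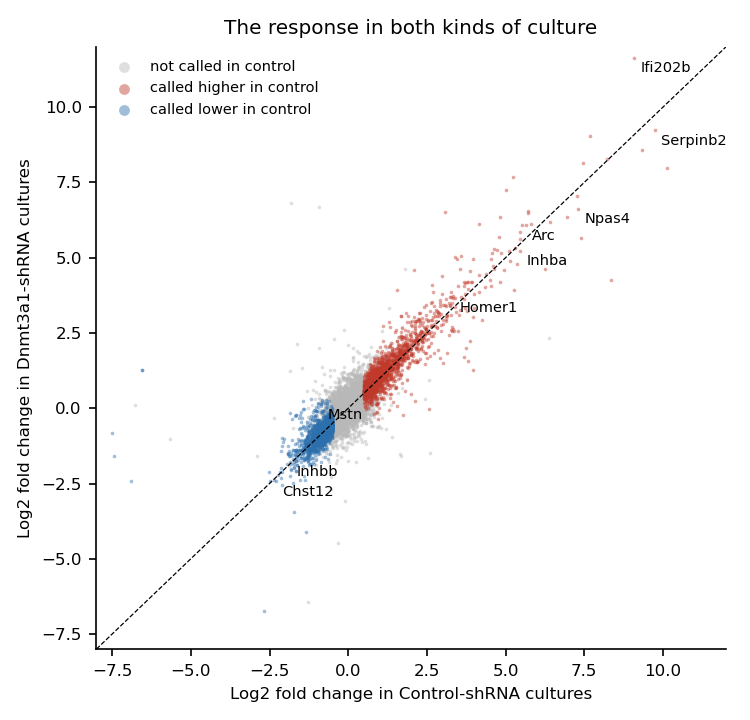
Log2 fold changes of 17222 genes in Control-shRNA cultures (horizontal) against Dnmt3a1-shRNA cultures (vertical), with the dashed line at equal change and colours for the calls in Control-shRNA. Of the 1854 genes called higher in Control-shRNA, 1846 lie above 0 on the vertical axis.

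The difference between the responses was tested as an interaction in edgeR, which called 0 genes (0%) and had 852 genes at an unadjusted p-value under 0.05. With voom and limma the count was 0, with 859 at that level, and with DESeq2 17, with 775. A fit with the replicate number as a block called 3, with 1565. The genes called in Control-shRNA with the smallest interaction p-value were Arpp21, Foxp1, Rbm11, Mapk4, Mstn and Atxn7. Mstn, a TGF-beta family ligand, changed by -0.85 ± 0.17 in Control-shRNA and by 0.13 ± 0.14 in Dnmt3a1-shRNA, and Arpp21, a cAMP-regulated phosphoprotein, by 1.04 ± 0.10 and 1.84 ± 0.10. Foxp1, at 0.53, was at 0.50 and under the threshold without baseline replicate 1 or 2. None of these 6 differences passed the adjustment over all genes.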

How the data were processed

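RNA of 16 libraries from hippocampal cultures, 4 for each of 4 groups, was sequenced by the authors. The deposited TPM and estimated counts per gene were made by the authors, who trimmed reads with Trim Galore (0.6.4) and quantified them with kallisto on GRCm38.p6; the annotation release and strand setting are not given in the sources used here. Estimated counts were rounded, filtered with filterByExpr, scaled by TMM and fitted with the quasi-likelihood test of edgeR (4.0.16) over all 4 groups, with p-values adjusted by Benjamini-Hochberg over all 17222 tested genes. The study used voom with limma, which is here an alternative, beside DESeq2 (1.42.0), other scalings, filters, pseudocounts, a replicate block and leaving out each library. The 8 libraries held 28912480 to 29281666 counts, and intervals given for counts cover counting error only.

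Replicate numbers come from the labels, and the replicates are separate neuronal preparations by the methods. Deviations from the group means in samples with the same number correlated with r of 0.309, 0.346, 0.305 and 0.224 across genes, all over 0.1, the limit set for taking the numbers as pairs. Samples with different numbers gave -0.363 to 0.355, the highest for baseline replicate 4 with bicuculline replicate 1. Some of these also passed 0.1, so the limit cannot show that samples with the same number are pairs. The gene lists and groups were chosen with earlier results of these data known. Genes were named by these rules: a fixed set of 16 genes, up to 3 called members per direction and 2 abundant uncalled members of each list with a mean of at least 1 CPM, the 12 largest changes per direction over all protein-coding genes of at least 10 TPM whose groups did not overlap, the 6 largest gains and losses in TPM, the 6 smallest interaction p-values, the cell markers, and for promoter windows up to 6 genes with a full CRE. Pim1, Zkscan16, Zfp184, Mir132, Mir212, 1700016P03Rik and the genes of the closing observations count as chosen after their values were seen where these rules do not name them.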

Additional observations from a re-analysis of the deposited data

Results flagged for a closer look

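In each group of 4 libraries the highest or lowest value was marked when its gap to the nearest other value, divided by the whole range, was above Dixon's 95% critical value, a limit that chance passes in about 1 in 20 groups. Over 151 genes and 302 groups, 14 values were marked. Bicuculline replicate 1 held 8 of them. It was the highest for 1700016P03Rik (55.7 CPM, others 34.9 to 38.1), Arc (1079 CPM, others 589 to 651), Egr1 (1545 CPM, others 868 to 963), Pim1 (98.0 CPM, others 74.4 to 74.97) and Tet3 (470 CPM, others 299.8 to 316). It was the lowest for Inhbb (5.47 CPM, others 10.8 to 11.8), Sema4c (44.9 CPM, others 47.9 to 48.2) and Sh3bp4 (11.3 CPM, others 14.2 to 14.3). For 7 of these 8 genes its value lay farther from the baseline than those of the other treated libraries, and for Sema4c nearer to it. This library also had the highest mitochondrial share among the 8, 5.86% of counts, whose part in these values was not tested.

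The other 6 values were at baseline. Replicate 3 was the highest for Col1a1 (9.76 CPM, others 6.12 to 6.48), Egr1 (61.0 CPM, others 35.6 to 39.5) and Sprr1a (0.0304 CPM, others 0) and the lowest for Rbm11 (3.92 CPM, others 5.18 to 5.29). Replicate 2 was the lowest for Crhbp (39.4 CPM, others 48.6 to 50.2) and Vgf (392.1 CPM, others 488 to 507). Sprr1a rests on 1 count.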

How the results depend on the processing

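The counts of genes called higher and lower stayed within 1.5 times of 1854 and 1911 under voom with limma, DESeq2, its size factors, other filters, the 8 control libraries alone and the replicate block. The block over 16 libraries took the replicate numbers as pairs, which the correlations given above do not establish. It called 2001 higher and 1985 lower. Among the named genes it changed no other call than those of Bcl2l1, C1qa, Cdh5, Col1a1, Grm2, Klf2, Mki67 and mt-Co1. Fits that each dropped a single library gave 1756 to 1924 higher and 1801 to 1934 lower. Scaling mattered more. Library sizes only gave 3031 lower, log2(TPM + 1) gave 1052 higher and log2(TPM + 0.1) gave 3212 lower. Without the threshold of fold 7131 genes were called, 3353 higher and 3778 lower, and with a log2 fold change over 1 there were 1378, 921 higher and 457 lower. The interaction called 17 genes with DESeq2 and 3 with the block, beside 0. No gene called in the text changed direction in any alternative run; Dnmt3a, Gria1 and Slc17a7, which were not called, changed sign in some. The cause of these shifts was not tested. Depth limits genes with few counts at baseline, such as Ifi202b, whose ratio has a wide interval.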

Other observations

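A few genes of skin and bone were among the steepest gains from a level near 0; they and the gene groups described next were chosen after their values had been seen. Sp7, a transcription factor of bone formation, was at 0.132, 0.123, 0.0912 and 0.0324 CPM at baseline and at 17.4, 8.19, 11.2 and 12.1 CPM with bicuculline (6.95 ± 0.33). Sp7 passed the filter on low counts through the treated libraries, in which it is high. Of 38 genes annotated as Lce or Sprr, whose proteins build the cornified envelope of skin, 18 had a count, and 5 passed the filter on low counts, through the treated libraries in which they are high, so that their calls are no result. The 38 lie within 0.803 Mb of chromosome 3. Sprr1a was at 0, 0, 0.0304 and 0 CPM and then at 8.44, 1.74, 1.30 and 4.49 CPM, a ratio of 496 with an exact 95% interval of 88.6 to 19642 for counting error. The treated values of this gene spread widely, and the Lce1 genes are near-identical copies whose reads can be divided among them.

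Of 13 small nucleolar RNA host genes named Snhg, 6 were called higher (46.2%, beside 10.8% of all genes) and none lower, and the median change was 0.47 (0.31 with library sizes only). Snhg12 went from 8.17 to 10.8 CPM up to at most 20.6 CPM (0.90 ± 0.11). Of 22 general transcription factor genes named Gtf, 7 were called lower (31.8%, beside 11.1% of all genes) and 1 higher (4.55%). The median was -0.19, and 0 to 1 was called higher when 1 library was left out. Of 15 Wnt ligands, 6 were called lower (40%) and 2 higher (13.3%), with 3 lower without baseline replicate 2. Fits that each dropped 1 library gave 1 to 2 higher. Wnt7a, which acts at synapses, went from 13.5 to 18.7 CPM to 6.17 to 11.3 CPM (-0.85 ± 0.18).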
